A study of Mus musculus with 2 samples.

Results

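Ramp1 and Ramp3 encode receptor activity modifying proteins, small membrane proteins that set which peptide the receptor Calcrl binds, and Calcrl completes the set described here. The 3 genes were taken by name, 3 of the 32285 genes in each matrix, and their level, the share of cells that carry them, their shared or exclusive use per cell and the genes that go with each were measured. They were chosen by their measured levels in these libraries, the high TIL level of Ramp1 and Ramp3, so the difference between the libraries is given as a description. The cells were γδ T lymphocytes of mouse colon tumor (TIL), set against γδ T lymphocytes of normal colon tissue (IEL), both from C57BL/6J mice aged 18 to 20 weeks with no transgene or treatment in the labels. Each tissue gave 1 droplet library that counts unique molecular identifiers (UMIs) of transcript 3' ends. How many mice went into a library, how the tumors arose and whether cells were sorted are not given in the sources used here, and the protocol text names tumor tissue for both samples.

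Calcrl is a G protein-coupled receptor of the calcitonin family that needs a partner RAMP to reach the cell surface. With Ramp1 it forms the receptor for calcitonin gene-related peptide (CGRP), which sensory nerve endings release in gut and skin, and with Ramp2 or Ramp3 it forms adrenomedullin receptors. These receptors signal mainly through Gs and cyclic AMP, and RAMPs can also pair with other G protein-coupled receptors.

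Ramp1 lies on chromosome 1, from 91179822 to 91225196 on the plus strand, Ramp3 on chromosome 11, from 6658521 to 6677475 on the plus strand, and Calcrl on chromosome 2, from 84330626 to 84425411 on the minus strand (GENCODE, GRCm38; all protein coding). The 250 bases before the RefSeq start of both coreceptor genes (GRCm38.p6, plus strand) are shown because the pair was abundant in the same tumor cells; capitals mark a GC box (GGGCGG, either strand).
Ramp1: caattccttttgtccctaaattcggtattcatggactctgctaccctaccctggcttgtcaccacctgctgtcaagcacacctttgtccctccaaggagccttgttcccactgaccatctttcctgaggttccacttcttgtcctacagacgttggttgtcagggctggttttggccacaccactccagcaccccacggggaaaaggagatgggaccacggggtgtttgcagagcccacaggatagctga
Ramp3: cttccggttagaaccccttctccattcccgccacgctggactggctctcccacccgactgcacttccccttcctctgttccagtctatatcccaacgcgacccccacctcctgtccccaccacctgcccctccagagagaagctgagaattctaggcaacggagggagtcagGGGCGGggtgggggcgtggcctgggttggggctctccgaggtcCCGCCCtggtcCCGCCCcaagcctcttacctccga
The Ramp1 window, from 91179572 to 91179821, held 4 CpG dinucleotides and no GC box. The Ramp3 window, from 6658283 to 6658532, held 13 CpG dinucleotides and 3 GC boxes, 78, 35 and 24 bases before the start. A GC box was found in 32.7% of the 32851 promoter windows of the same length, and their median was 6 CpG dinucleotides. None of the 3 members' windows held a cyclic AMP response element (TGACGTCA, in 1.55% of windows), its shorter form TGACG (17.8%), AGGTCA (14.0%) or TATAAA (12.4%) on either strand. A match or its lack describes these letters only.

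The TIL library held 13245 barcodes and 94953893 UMIs, and the IEL library 9398 barcodes and 69414155 UMIs. After filtering, 11709 TIL cells and 9080 IEL cells were γδ T-like by their fixed markers, with a median of 6378 UMIs per TIL cell and 6855.5 UMIs per IEL cell. Trac, the constant segment of the αβ T cell receptor, had a UMI in 37.1% of these TIL cells and 77.8% of these IEL cells. The members' ratios over cells of any class with a δ or γ constant segment and no Trac UMI stand beside the result below. All 7 γδ T markers reached 50 counts per 1e+06 UMIs (CPM) in both libraries. They include Cd3d, Cd3e and Cd3g, which αβ T cells share. Of 5 αβ T markers, 3 also reached 50 CPM in each library. In γδ T-like cells the 5 summed to 1968 CPM in TIL and 2434 CPM in IEL. A cluster counted as γδ T-like (cluster 12, 2127 IEL cells) was led by Cd8b1 and Themis. Whether αβ T cells were among the γδ T-like cells was not tested. The libraries shared 33 barcodes. All 4 erythroid markers reached 50 CPM in TIL γδ T-like cells, where their sum was 1603 CPM, against 0.190 CPM in IEL cells. A rough measure of RNA from outside the cell is given below for the TIL library, with its limits. With 1 library a group there is no replicate and no test: all intervals are 95% intervals for counting error only, and tissue and library cannot be told apart.

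Ramp3 was the most abundant member in both libraries and Ramp1 the one furthest apart between them. Ramp1 had 27123 UMIs in TIL γδ T-like cells, 317 CPM, against 349 UMIs in IEL γδ T-like cells, 5.11 CPM. Ramp3 had 61204 UMIs in TIL cells, 715 CPM, against 2246 UMIs in IEL cells, 32.9 CPM. On the log2 scale the TIL level stood 5.95 above the IEL level for Ramp1 (5.80 to 6.11) and 4.44 above it for Ramp3 (4.38 to 4.50). These sizes depend on the cells counted: over cells with a δ or γ constant segment and no Trac UMI they were 4.32 for Ramp1 and 3.64 for Ramp3, and under a stricter filter on cells 6.73 for Ramp1. Calcrl, the receptor subunit itself, was scarce in both, with 237 UMIs and 2.77 CPM in TIL cells against 297 UMIs and 4.35 CPM in IEL cells. Of the 3 members, 2 were at least 2-fold higher in TIL cells at 20 CPM or more; 11.1% of the 6329 genes measured were, and since the genes were proposed with these values in view nothing is read from the count. Among those genes, ordered from the highest TIL to IEL ratio, Ramp1 stood at rank 79 and Ramp3 at rank 111.

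Shares of cells were taken after thinning every cell to 2000 UMIs, so that depth is equal. Ramp1 was found in 36.2% of TIL cells (35.3% to 37.1%) and 0.910% of IEL cells (0.725% to 1.13%). Ramp3 was found in 49.2% of TIL cells (48.3% to 50.1%) and 5.35% of IEL cells (4.90% to 5.84%). Calcrl was found in 0.593% of TIL cells (0.462% to 0.750%) and 0.744% of IEL cells (0.577% to 0.944%), intervals that overlap. Without thinning the shares were 62.6% and 1.95% for Ramp1, 66.8% and 12.4% for Ramp3, and 1.93% and 3.11% for Calcrl, TIL cells first in each pair. Ramp3 also reached the higher counts per cell: 31.9% of TIL cells held at least 6 Ramp3 UMIs and 12.6% held at least 6 Ramp1 UMIs, with at most 86 and 34 UMIs in a cell. No cell held more than 2 Calcrl UMIs in either library.

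Both coreceptors differed between the classes of γδ T cell in each library. Cells were clustered without the members, and clusters were named from fixed markers as IL-17-type (Il17a, Il23r and others), recirculating-like (Ccr7, S1pr1 and others), cytotoxic-like (Gzmb, Ccl5, Nkg7) or cycling-like (Mki67, Top2a). IL-17-type cells were 9757 of the TIL cells, where they held 96.5% of the Ramp1 UMIs and 95.3% of the Ramp3 UMIs. Only 59 IEL cells, 0.650% of the IEL γδ T-like cells, were IL-17-type, and they held 56.7% of the IEL Ramp1 UMIs but 5.34% of the IEL Ramp3 UMIs. The 8901 cytotoxic-like IEL cells held 92.8% of the IEL Ramp3 UMIs.

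Ramp1 was at 362 CPM in TIL IL-17-type cells, 73.9 CPM in TIL recirculating-like cells, 10.4 CPM in TIL cytotoxic-like cells and 223 CPM in TIL cycling-like cells, against 554, 102, 2.07 and 0.640 CPM in the same IEL classes. Ramp1 therefore ran from IL-17-type down to cytotoxic-like cells in both libraries, and the cycling-like cells stood apart between them; of the cycling-like cells, 128 of 151 in TIL and 0 of 99 in IEL lay in a cluster with 9 of the 13 IL-17-type markers at 50 CPM or more. Ramp3 was at 806 CPM in TIL IL-17-type cells, 343 CPM in TIL recirculating-like cells, 125 CPM in TIL cytotoxic-like cells and 265 CPM in TIL cycling-like cells, against 336, 180, 31.5 and 12.2 CPM in the same IEL classes. Ramp3 kept the same order of these 3 classes, with a smaller gap between IL-17-type and cytotoxic-like cells than Ramp1. The IEL recirculating-like class was 21 cells and its values rest on 13 Ramp1 and 23 Ramp3 UMIs.

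**Figure D1:**
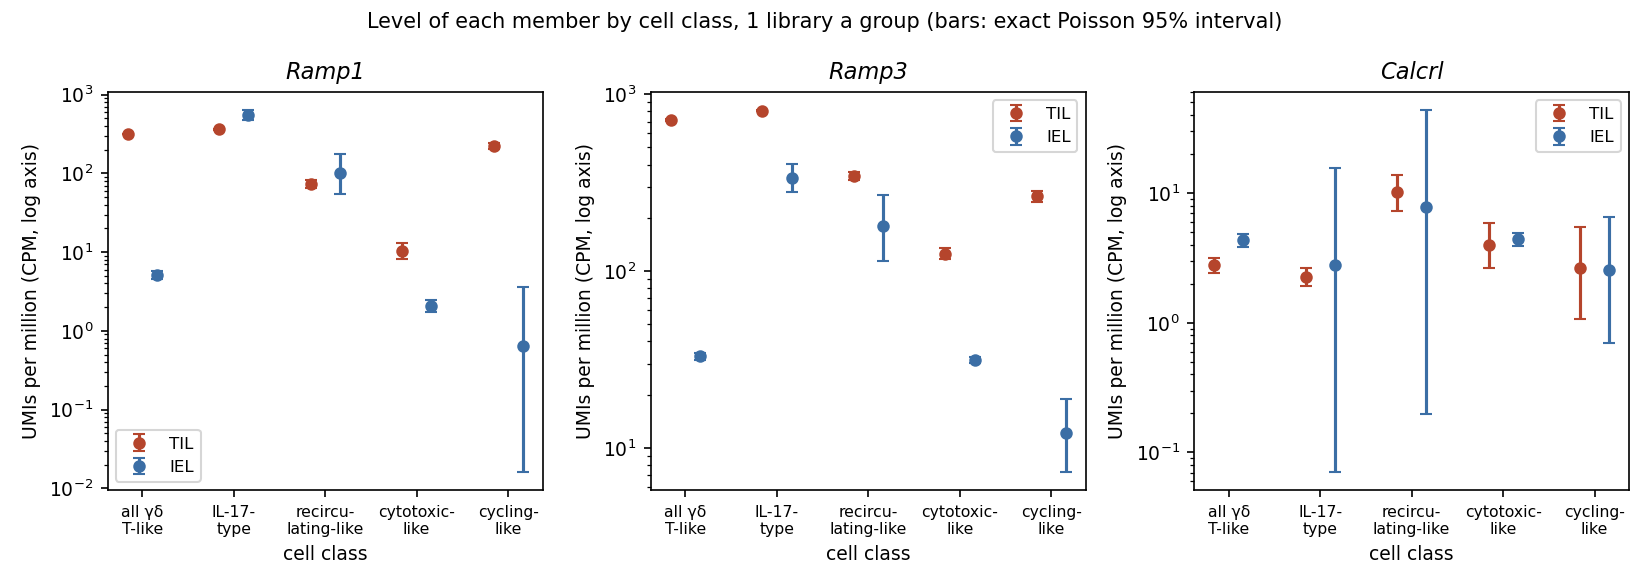
Level of Ramp1, Ramp3 and Calcrl in CPM (log axis) for all γδ T-like cells and by cell class, TIL in red and IEL in blue, with exact Poisson 95% intervals as bars. In IL-17-type cells Ramp1 stood lower in TIL (362 CPM) than in IEL (554 CPM), while Ramp3 stood higher in TIL (806 CPM) than in IEL (336 CPM).

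Within IL-17-type cells the difference in Ramp1 between the libraries had the opposite direction to that over all γδ T-like cells. The largest TIL cluster without IEL cells (cluster 5, 2953 TIL cells) had Lum, a fixed fibroblast marker, and no IL-17-type marker among its 10 leading genes, so it was left out of the comparison of the class; the other fibroblast markers there were at or below 5.31 CPM. In the remaining IL-17-type clusters Ramp1 was at 394 CPM in 6804 TIL cells against 554 CPM in 59 IEL cells, a ratio of 0.712 (0.619 to 0.823). Ramp3 was at 675 CPM in the TIL cells against 336 CPM in the IEL cells, a ratio of 2.01 (1.68 to 2.43). Of the 59 IEL cells, 1 shared its barcode with a TIL cell. Under each other filter the cells were clustered and named anew, so the class itself changed, and both ratios and its number of IEL cells moved. On the log2 scale the ratios were -0.49 for Ramp1 and 1.01 for Ramp3 as given. They were -1.26 and 3.75 under the stricter filter with 7 IEL cells, and -0.82 and 2.48 under the looser filter with 21 IEL cells. Which step moved them was not tested.

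The same pair of directions was seen in clusters 1, 3 and 6, while clusters 2 and 4 held 4 IEL cells each and were not compared. In cluster 1, which led with Il17a, Ramp1 was at 386 CPM in 598 TIL cells against 503 CPM in 29 IEL cells, and Ramp3 was at 678 CPM in the TIL cells against 375 CPM in the IEL cells. In cluster 3, which led with Il18r1, the ratio of TIL over IEL was 0.520 for Ramp1 (0.372 to 0.752) and 4.04 for Ramp3 (2.52 to 6.94), with 10 IEL cells. In cluster 6, which led with Tppp3, the ratio was 0.623 for Ramp1 (0.458 to 0.870), while that for Ramp3, 1.48, had an interval that includes 1 (0.749 to 3.44), with 12 IEL cells. Where IL-17-type cells were instead taken cell by cell, as those with a UMI of at least 5 of the 13 markers, Ramp1 was at 348 CPM in 9670 TIL cells against 423 CPM in 72 IEL cells, and Ramp3 was at 766 CPM in the TIL cells against 237 CPM in the IEL cells. These few IEL cells come from 1 library, so the spread between mice behind either ratio is not known.

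Cytotoxic-like cells, the main class of normal colon, had the coreceptors at low levels. Ramp1 had 70 UMIs in 1088 TIL cytotoxic-like cells and 137 UMIs in 8901 IEL cytotoxic-like cells. Ramp3 had 845 UMIs in the TIL cells and 2084 UMIs in the IEL cells, 125 and 31.5 CPM, and 1336 of the IEL UMIs lay in cluster 17, which led with Klra7, Id3, Tcf7 and Xcl1 and had 80.3 CPM. The other IEL cytotoxic-like clusters of at least 50 cells lay between 9.94 and 23.1 CPM. The TIL cells of the class lay mainly in clusters 10, 13 and 17 and the IEL cells in clusters 11, 12, 14, 17 and 18; within cluster 17 Ramp3 was at 119 CPM in 76 TIL cells against 80.3 CPM in 2193 IEL cells, a ratio of 1.48 (1.11 to 1.93). Cluster 10 had Cdh1, a fixed epithelial marker, and no cytotoxic marker among its leading genes; without it, the ratio over the class was 2.06 for Ramp3 (1.74 to 2.42), with 2.09% of 6040 genes at least 2-fold higher on the TIL side and 4.49% on the IEL side over the whole class.

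Myeloid-like TIL cells were used as a rough measure of RNA that does not belong to the cell. Their cluster had 5 γδ T and 6 IL-17-type markers at 50 CPM or more, and up to 41 Ramp3 UMIs in a cell. Whether its droplets also held T cells was not tested, so its shares may exceed those of RNA from outside the cell alone. At 2000 UMIs, 13.7% of the myeloid-like cells held a Ramp1 UMI and 24.7% a Ramp3 UMI, at a median of 6919 UMIs per cell. The share for Ramp1 in TIL cytotoxic-like cells, 1.30% at a median of 5662.5 UMIs, and in TIL recirculating-like cells, 13.6% at a median of 5012 UMIs, did not exceed the myeloid-like share, nor did that for Ramp3 in TIL cytotoxic-like cells, 18.0%, so these shares alone do not show expression. For Calcrl, 2 of 219 myeloid-like TIL cells held a UMI, 0.913% (0.111% to 3.26%), and the 0.593% of TIL γδ T-like cells did not exceed it. The IEL library had 1 myeloid-like cell, so no such share stands beside the IEL values. Set against Il17a, an abundant transcript of the TIL library, there were 7.05 Ramp1 UMIs per 100 Il17a UMIs over all TIL cells, 7.43 in myeloid-like, 10.4 in cytotoxic-like and 73.8 in recirculating-like cells. For Ramp3 there were 16.2 UMIs per 100 Il17a UMIs over all TIL cells, 23.4 in myeloid-like, 126 in cytotoxic-like and 343 in recirculating-like cells. The ratio to Il17a stood far above that over all TIL cells for Ramp3 in cytotoxic-like and recirculating-like cells and for Ramp1 in recirculating-like cells. The Ramp1 value in cytotoxic-like cells rests on 70 UMIs. What part of these values came from RNA outside the cell was not tested.

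Within the TIL IL-17-type cells the balance of the coreceptors differed between the clusters. This holds at the Leiden resolution used, 1.0; at resolution 0.5, which merged clusters, the ratio of Ramp3 to Ramp1 UMIs ran from 1.89 to 3.04 and no cluster lay on the Ramp1 side. Ramp1 was highest in cluster 4 (led by Il17f, Batf3 and Vdr, with Il22 also among its 10 leading genes), at 534 CPM (523 to 545). Clusters 1, 6 and 2 followed at 386, 368 and 368 CPM with overlapping intervals, and clusters 3 and 5 were lowest at 292 and 291 CPM, also overlapping. Ramp3 took another order: it was highest in cluster 2 (led by Il22, with Il17f also among its 10 leading genes), at 1507 CPM, then at 1136 CPM in cluster 3, 1087 CPM in cluster 5 and 678 CPM in cluster 1, and lowest in cluster 4, at 195 CPM (188 to 202), and cluster 6, at 171 CPM (161 to 181). There were 0.365 Ramp3 UMIs per Ramp1 UMI in cluster 4 (0.350 to 0.380) and 0.464 in cluster 6, against 1.76 in cluster 1, 3.73 in cluster 5, 3.89 in cluster 3 and 4.10 in cluster 2.

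**Figure D2:**
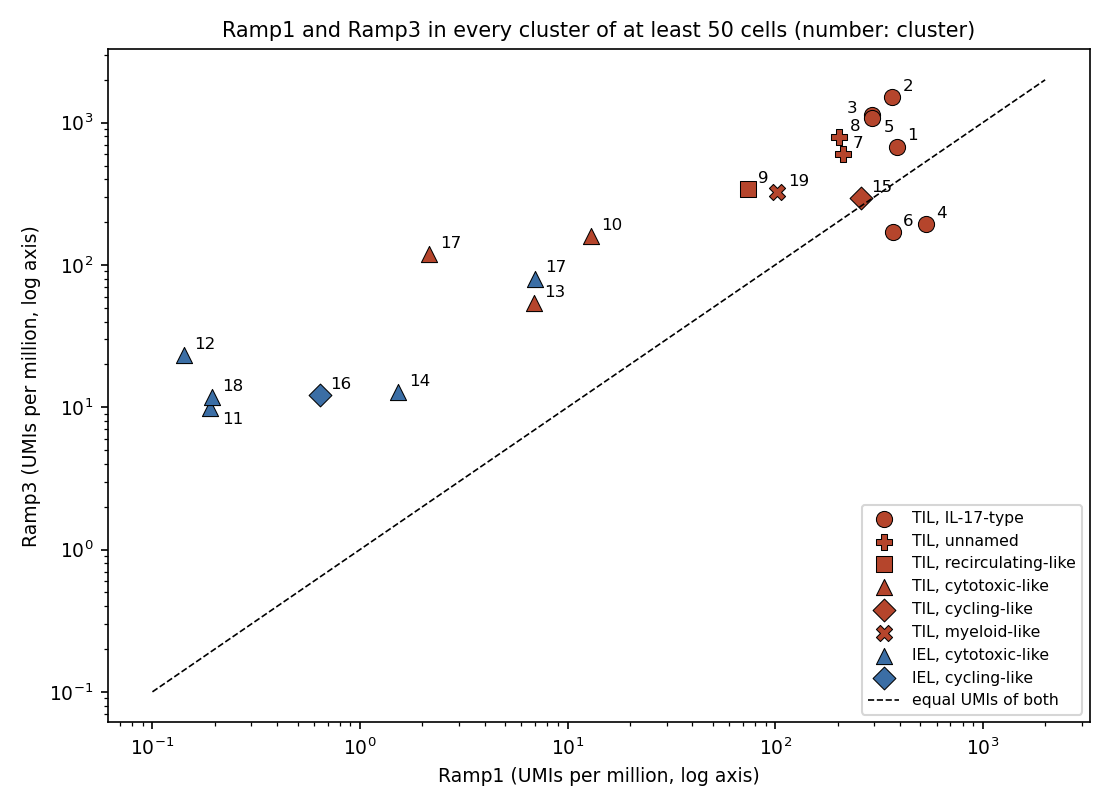
Ramp3 against Ramp1 in CPM (both log axes) for every cluster with at least 50 cells of a library, TIL in red and IEL in blue, the marker giving the class and the number the cluster. TIL clusters 4 and 6 lie below the line of equal UMIs, at 0.365 and 0.464 Ramp3 UMIs per Ramp1 UMI, and all other clusters shown lie above it.

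Counted cell by cell at 2000 UMIs, 19.4% of the 11628 TIL γδ T-like cells deep enough held Ramp1 only, 32.5% held Ramp3 only, 16.7% held both and 31.3% held neither. In 9007 IEL cells the shares were 0.644%, 5.08%, 0.266% and 94.0%. The share of TIL cells with both was 0.940 times the product of the separate shares, 17.8%, and 46.3% of TIL cells with Ramp1 also held Ramp3, against 50.9% of TIL cells without Ramp1. Within IL-17-type TIL cells the share with both was 19.4%, 0.864 times the product of 22.5%. At the full depth of each cell the ratio was 1.01 over γδ T-like cells and 0.959 over IL-17-type cells, and with at least 2 UMIs of each gene asked for it was 0.965 over γδ T-like cells (0.933 to 0.998). In IEL γδ T-like cells the share with both was 5.47 times its product at 2000 UMIs, and in the 58 IEL IL-17-type cells deep enough, 0.855 times.

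Cluster 4 stood out for cells with Ramp1 alone: 45.5% held Ramp1 only, 11.2% Ramp3 only and 9.96% both. In cluster 6 the shares were 34.4%, 13.3% and 8.96%. In cluster 3 the order was reversed, with 15.02% Ramp1 only, 45.1% Ramp3 only and 21.2% both, and cluster 5 gave 13.3%, 44.4% and 23.7%. IEL IL-17-type cells, at 43.1% Ramp1 only, 17.2% Ramp3 only and 20.7% both, lay nearer to TIL clusters 4 and 6 than to the other TIL IL-17-type clusters in their Ramp1-only share.

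**Figure D3:**
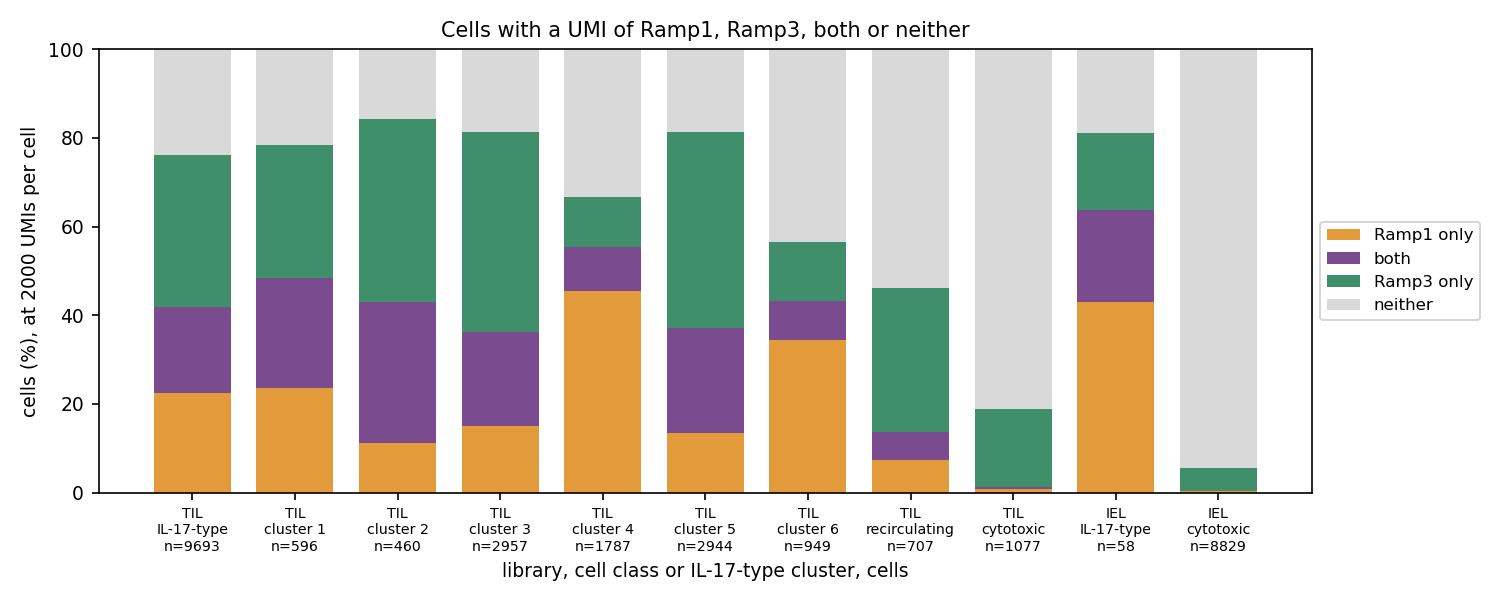
Share of cells (%) with a UMI of Ramp1 only, both, Ramp3 only or neither after thinning to 2000 UMIs per cell, for TIL IL-17-type cells, their 6 clusters, other TIL classes and IEL classes, with the number of cells under each bar. Ramp1-only cells make up 45.5% of TIL cluster 4 and 43.1% of IEL IL-17-type cells, against 13.3% of TIL cluster 5.

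Single UMIs say little about exclusive use, so cells with at least 5 UMIs of the pair together were also counted at full depth. Of 6257 such TIL γδ T-like cells, 63.1% held both, 23.5% held Ramp3 only and 13.3% held Ramp1 only. In TIL cluster 4, 48.1% of 965 such cells held Ramp1 only and 4.87% Ramp3 only. In TIL cluster 5, 3.86% of 2122 such cells held Ramp1 only and 26.5% Ramp3 only. The median Ramp3 share of a cell's UMIs of the pair was 6.67% in cluster 4, 20.0% in cluster 6, 85.7% in cluster 5 and 87.5% in cluster 3. The distribution over all IL-17-type cells had its fullest bins at both ends, 35.2% of cells at 90% to 100% Ramp3 and 14.8% of cells below 10% Ramp3.

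Over the 11709 TIL γδ T-like cells, the Pearson correlation of Ramp1 with Ramp3 (log of 1 plus counts per 10000) was -0.09, and over the 9757 IL-17-type cells it was -0.23. In the single clusters 1 to 6 it lay between -0.21 (cluster 3) and -0.06 (cluster 2), below 0 in each. These cells share 1 library and differ in depth, and values this small in sparse counts are a description only.

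Calcrl was too sparse to be placed cell by cell. Its UMIs lay in 226 TIL γδ T-like cells, of which 197 also held Ramp1 or Ramp3, 133 held Ramp1 and 163 held Ramp3. In IEL, 282 γδ T-like cells held Calcrl, of which 61 held Ramp1 or Ramp3. Calcrl was found in 1.81% of TIL cells with Ramp1 (1.52% to 2.15%) against 2.12% of TIL cells without it (1.72% to 2.60%), and in 2.08% of TIL cells with Ramp3 (1.78% to 2.42%) against 1.62% of TIL cells without it (1.25% to 2.07%). These TIL intervals overlap in pairs, so no link was detectable in TIL at this depth. In IEL the intervals did not overlap: Calcrl was found in 6.78% of the 177 cells with Ramp1 (3.55% to 11.5%) against 3.03% of those without it (2.69% to 3.41%), and in 4.90% of cells with Ramp3 (3.71% to 6.33%) against 2.85% of those without it (2.50% to 3.24%). These shares were taken at full depth, and the depth of the cells was not matched. By class, Calcrl was highest in TIL recirculating-like cells, at 10.1 CPM from 39 UMIs, 4.48 times the 2.27 CPM of TIL IL-17-type cells (3.07 to 6.38). TIL cytotoxic-like cells had 4.01 CPM, against 4.40 CPM in IEL cytotoxic-like cells, a ratio of 0.912 with an interval that includes 1 (0.591 to 1.35). Endothelial cells are a known site of Calcrl; 8 endothelial markers summed to 56.1 CPM in TIL γδ T-like cells, against 8.87 CPM in those of IEL, of which Pecam1, also a leukocyte gene, gave 53.8 and 8.56 CPM, and their part in the Calcrl level was not tested.

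Of the other genes of the family, only Ackr3 and Crcp reached 20 CPM in either library. No ligand reached 20 CPM: Calca, which encodes CGRP alpha and calcitonin, had 14.98 CPM in TIL γδ T-like cells, against 3.14 CPM in those of IEL, and Calcb, which encodes CGRP beta, had 0.678 CPM in TIL cells, against 6.11 CPM in IEL cells. Adm, which encodes adrenomedullin, had 10 UMIs in TIL and 15 UMIs in IEL cells, Adm2 had 1 UMI in TIL and 0 UMIs in IEL cells, and Iapp, which encodes amylin, had none in either. Ramp2 had 18 UMIs in TIL and 0 UMIs in IEL cells, and Calcr, the calcitonin receptor, had none in either. Ackr3, a scavenging receptor that also takes up adrenomedullin, had 34.0 CPM from 2912 UMIs in TIL cells against 0.132 CPM from 9 UMIs in IEL cells, 8.01 higher on the log2 scale. Crcp, which encodes a component of the CGRP receptor complex and of RNA polymerase III, had 22.5 CPM in TIL cells, against 36.9 CPM in IEL cells. Of the 4 family receptor genes at 20 CPM or more, Ramp1, Ramp3 and Ackr3 were past 2-fold on the TIL side and 0 on the IEL side, beside 11.1% and 13.8% of all genes. Ramp1 and Ramp3 were chosen for their high TIL level, so nothing is read from this count.

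Other receptors that RAMPs can pair with gave 1 gene at 20 CPM or more of 11 listed, Glp1r, the receptor for glucagon-like peptide 1, at 24.1 CPM in TIL cells, against 99.3 CPM in IEL cells; Vipr2, a receptor for vasoactive intestinal peptide, stood below that level at 12.6 and 11.6 CPM. Among the other neuropeptide and neurotransmitter receptors, Adrb1, a β-adrenergic receptor, was at 9.15 CPM in TIL cells, against 50.5 CPM in IEL cells. Of 13 Gs and cyclic AMP signalling genes measured, 1 was past 2-fold in each direction, beside the 11.1% of all genes higher in TIL and 13.8% higher in IEL: Gnb1, a G protein β subunit, was 1.06 higher in TIL on the log2 scale, and Prkacb, a catalytic subunit of protein kinase A, was at 61.1 CPM in TIL cells, against 169 CPM in IEL cells. Gnas, which encodes the Gs α subunit itself, was at 1023 CPM in TIL cells, against 997 CPM in IEL cells, a gene named after its values were seen.

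Of 6 phosphodiesterases, which degrade cyclic AMP, Pde4b and Pde8a were past 2-fold higher in TIL (1.33 and 1.50 on the log2 scale), and Pde7a and Pde4a past 2-fold higher in IEL (-1.48 and -1.11). Of 10 desensitisation and trafficking genes, Rab4a (1.82), a recycling GTPase, and Arrb1 (1.37) were past 2-fold higher in TIL, and Arrb2 (-1.54) and Grk6 (-1.11) past 2-fold higher in IEL; Arrb1 and Arrb2 encode the β-arrestins, which take receptors off the surface. Of 11 genes known to be induced by cyclic AMP, Areg (9.10), which encodes amphiregulin, and Crem (1.49) were past 2-fold higher in TIL, and Fos (-3.67), Nr4a2 (-2.23), Fosb (-1.79) and Dusp1 (-1.59) past 2-fold higher in IEL. Over all measured genes 11.1% were past 2-fold higher in TIL and 13.8% in IEL, and counts this small say little beside those shares. The median log2 ratio was 0.05 for the signalling genes, -0.54 for the phosphodiesterases, 0.28 for the desensitisation genes and -0.34 for the induced genes, beside -0.10 over all 6329 genes.

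The 10 genes highest with Ramp1 and the 10 highest with Ramp3 over TIL γδ T-like cells had no gene in common, although Tmem176a (0.30 and 0.29) and Tmem176b (0.30 and 0.28) had like values with Ramp1 and Ramp3, and Nkg7, Ccl5 and Cd7 were among the 5 lowest of both. Ramp1 went with S100a4 (r of 0.47), S100a6 (0.41), Lgals1 (0.40) and Capg (0.36), which encode calcium-binding proteins, galectin-1 and an actin-capping protein, and then with Bcl2a1d, Tmem176a, Tmem176b, Bcl2a1b, Blk and S100a11 at 0.29 to 0.31. In cells thinned to 2000 UMIs, S100a4 was at 1990 CPM in those with a Ramp1 UMI against 1122 CPM in those without. The lowest values with Ramp1 were those of the cytotoxic markers Nkg7 (-0.34), Ccl5 (-0.33) and Klrd1 (-0.31), and of Cd7 and Fcer1g (both -0.29). Bcl2a1b and Bcl2a1d are near-identical copies, so the split of UMIs between them is uncertain, and Tmem176a, Tmem176b, Blk, Nkg7, Ccl5 and Klrd1 are among the markers that named the classes.

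Ramp3 went with Il7r (0.45), the α chain of the interleukin-7 receptor, Sgip1 (0.39), an endocytic adaptor, Fth1 (0.38), ferritin heavy chain, and Crem (0.36), a transcription factor gene of the cyclic AMP response. Sdc1, Cd53, Emb, Hif1a, Ifngr1 and Epas1 followed at 0.32 to 0.34; Hif1a and Epas1 encode hypoxia-inducible factor α subunits and Ifngr1 an interferon-γ receptor chain. Sgip1 had 3.37 times the CPM in cells with a Ramp3 UMI of that in cells without, and Sdc1, syndecan-1, 3.06 times. The lowest values were those of Eef1a1 (-0.29), Naca (-0.28), Cd7 (-0.28), Nkg7 (-0.27) and Ccl5 (-0.26). Over the 5087 genes the median r was 0.02 with Ramp1 and 0.00 with Ramp3.

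**Figure D4:**
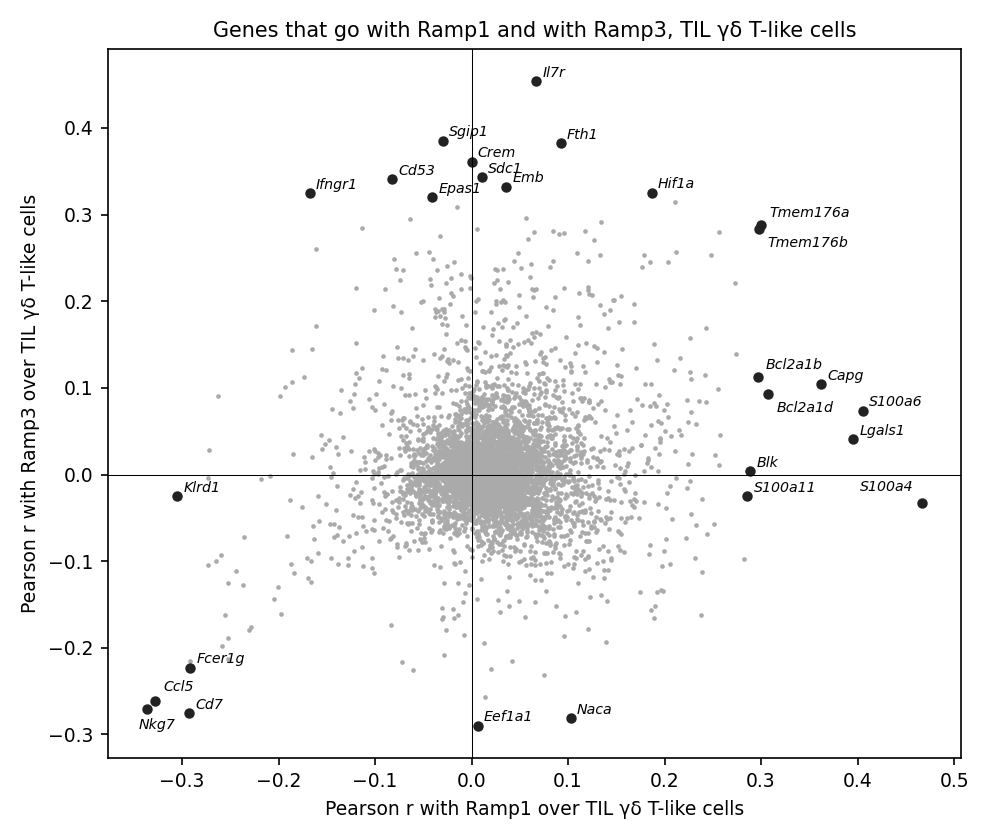
Pearson correlation with Ramp1 (x axis) and with Ramp3 (y axis) over 11709 TIL γδ T-like cells for each of the 5087 genes at 20 CPM or more (grey), the 10 highest and 5 lowest of each coreceptor in black with their names. S100a4 lies far right at 0.47 with Ramp1 and -0.03 with Ramp3, and Il7r far up at 0.45 with Ramp3 and 0.07 with Ramp1.

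Much of the Ramp1 pattern lay between classes and most of the Ramp3 pattern lay within them. Over IL-17-type cells alone, 4 of the 10 Ramp1 genes stayed among the 10 highest (S100a4, S100a6, Lgals1 and Capg), while Tmem176a dropped to 0.02. For Ramp3, 8 of the 10 stayed, with Il7r at 0.42, Ifngr1 at 0.41 and Crem at 0.35. Inside the single IL-17-type clusters, 6 of the 10 Ramp1 genes and 9 of the 10 Ramp3 genes had r above 0 in all 6. With Ramp1, S100a4 lay between 0.16 and 0.47, and Tmem176a, at 0.02 over the pooled cells, between 0.05 and 0.20. With Ramp3, Il7r lay between 0.19 and 0.39 and Crem between 0.14 and 0.28. Among the pathway genes, Rgs2, a regulator that shortens G protein signals, had r of 0.28 with Ramp3 and 0.01 with Ramp1. The values were 0.28 and 0.06 for Areg, and 0.22 and -0.04 for Junb. These genes are named for their high values with Ramp3. Apart from Crem, Areg and Junb, the cyclic AMP-induced genes measured lay between -0.09 (Nr4a1) and 0.12 (Dusp1) with Ramp3. Nr4a2 (-0.07) and Fosb (-0.04) were also below 0.

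TIL cells with Ramp3 and no Ramp1 at 2000 UMIs (3778 cells) were also set against those with Ramp1 and no Ramp3 (2260 cells), over 2918 genes. Furthest towards the Ramp3-only cells were Il22, at 79.4 CPM against 11.5 CPM, 2.79 on the log2 scale (2.38 to 3.22), and Fcer1g (2.55), Abcb1a (2.22), Ecm1 (2.16), Klrd1 (2.10), Sgip1 (1.96), Serpinb9 (1.94), Lum (1.75), Gzma (1.73) and Epb41 (1.70). Gzma, granzyme A, was by far the most abundant of these, at 4545 CPM in Ramp3-only cells against 1366 CPM in Ramp1-only cells. Furthest towards the Ramp1-only cells were the transcription factor gene Batf3, at 41.8 CPM in Ramp3-only cells against 153 CPM in Ramp1-only cells (-1.87), then Rgs16 (-1.56), Il17f (-1.56), the vitamin D receptor gene Vdr (-1.44), Cxcl3 (-1.33), Lmna (-1.24), Crmp1 (-1.20), Cd83 (-1.17), Hnrnpll (-1.12) and S100a4 (-1.10). In these cells, chosen by the pair itself, Il22 lay on the Ramp3 side and Il17f on the Ramp1 side. The clusters did not keep this split. Il22 was also among the leading genes of cluster 4, at 0.365 Ramp3 UMIs per Ramp1 UMI, and Il17f among those of cluster 2, at 4.10. Il17a had r of 0.19 with Ramp1 and 0.13 with Ramp3 over TIL γδ T-like cells. Within IL-17-type cells alone, 7 of the 10 genes on the Ramp3 side and 9 of the 10 on the Ramp1 side stayed among the 10 furthest, with Il22 at 2.91 and Batf3 at -1.79. Without thinning, 3 of the 10 stayed on the Ramp3 side and 8 of the 10 on the Ramp1 side.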

How the data were processed

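The deposited matrices hold UMI counts per gene and cell barcode with no normalization, per the file headers; Cell Ranger 6.1.1 and the mm10 build are named in the submitters' processing notes. Barcodes passed with 500 genes or more, 1000 UMIs or more and a mitochondrial share up to 10% (93.7% of TIL, 97.1% of IEL). The libraries were clustered jointly and no batch correction was applied (Scanpy 1.11.5; 2000 variable genes without calcitonin-family genes and receptor segments, 30 components, 15 neighbours, Leiden resolution 1.0, igraph 0.11.9). A cluster was named from fixed markers at 50 CPM; the rules that set apart mixed and Cd4-high clusters were chosen after the data were seen. No doublet caller was run: clusters with mixed markers stayed unnamed, and results were repeated without cells above 20000 UMIs. Counts were summed per class and given as CPM with exact Poisson intervals, ratios with exact conditional intervals, and shares with Clopper-Pearson intervals. A gene was measured at 20 CPM in either library. The ratio routine was checked on simulated Poisson counts, which hold no spread between cells, mice or libraries, so this says nothing on that spread. Genes named were the members, the 4 furthest of each pathway list plus all calcitonin-family ligands and receptors, the 10 highest and 5 lowest by correlation, and the 10 furthest each way between Ramp3-only and Ramp1-only cells at 50 CPM. Members and lists were chosen with earlier results of these data known. Some genes of these lists are not reported here.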

Additional observations from a re-analysis of the deposited data

How the results depend on the processing

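The direction of every ratio of TIL over IEL held under the alternatives run: Ramp1 and Ramp3 above 0 on the log2 scale over γδ T-like cells, Calcrl below 0, and in IL-17-type cells Ramp1 below 0 and Ramp3 above 0. No paired analysis was possible because each group had 1 library. Of 157 repeated values, 95 lay within the counting interval of the reported value, or within 1.5 times for counts, and 62 did not; the cause of a shift was not tested unless the setting is itself a change of depth, of a threshold or of the cells counted. Alternatives by cells with 5 markers, by shared barcodes and with the cluster led by Lum were chosen after seeing the data.

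Under the stricter and the looser filter the cells were clustered and named anew. The stricter filter (1000 genes, 2000 UMIs, 5% mitochondrial) gave log2 ratios of 6.73 for Ramp1 and 4.52 for Ramp3. In IL-17-type cells, of which 7 were IEL cells, it gave -1.26 and 3.75. The looser filter (200 genes, 500 UMIs, 20%) gave -0.82 and 2.48 in IL-17-type cells, of which 21 were IEL cells, and 0.953% of IEL cells with Calcrl. Under the stricter filter the TIL shares were 33.1% for Ramp1, 47.9% for Ramp3 and 15.1% for both, and the IEL Ramp1 share was 0.394%. Taking cells with a δ or γ constant segment and no Trac UMI gave log2 ratios of 4.32 for Ramp1 and 3.64 for Ramp3, with Ramp3 in 52.3% of TIL cells and in 9.50% of IEL cells, and Ramp1 in 2.69% of IEL cells. All cells gave 5.64 for Ramp1. Setting the median ratio of all genes to 1 gave 4.54 for Ramp3. Cells with 5 of 13 markers gave 1.69, and Leiden resolution 2.0 gave 1.37, for Ramp3 in IL-17-type cells.

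Thinning to 1000 UMIs gave TIL shares of 22.4% (Ramp1), 37.5% (Ramp3), 0.325% (Calcrl) and 7.47% (both, 0.890 times the product), and IEL shares of 0.507%, 2.84% and 0.463%. Thinning to 4000 UMIs gave TIL shares of 53.0%, 59.8%, 1.13% and 31.2% (0.983 times), and IEL shares of 1.33%, 8.12% and 1.75%. No thinning gave TIL shares of 62.6%, 66.8%, 1.93% and 42.3% (1.01 times), and IEL shares of 1.95%, 12.4% and 3.11%. At least 2 UMIs gave TIL shares of 43.6%, 53.3%, 0.0939% and 22.4% (0.965 times), and IEL shares of 0.639% for Ramp1 and 0.165% for Calcrl. IL-17-type TIL cells alone gave 19.4% with both (0.864 times), and kept 4 of the 10 genes highest with Ramp1. Without thinning, 3 of the 10 genes furthest towards Ramp3-only cells remained. At 3-fold, 5 pathway genes were higher in TIL and 6 in IEL, against 10 and 11 at 2-fold. Over all measured genes 11.1% were past 2-fold higher in TIL and 13.8% in IEL, and the share past 3-fold was not computed. The TIL counts include Ramp1 and Ramp3, which were chosen for their high TIL level, so nothing is read from these counts.

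Leiden resolution 2.0 put Ramp1 at 367 CPM and Ramp3 at 902 CPM in TIL IL-17-type cells, and the Ramp3 to Ramp1 ratio over their clusters ran from 0.384 to 10.5; resolution 0.5 merged clusters, and the ratio ran from 1.89 to 3.04.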
